A study of Mus musculus with 4 samples.

Results

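The genes described here build the contacts between neighbouring cells: the claudins with occludin (Ocln) and the Tjp scaffolds of tight junctions, the desmogleins (Dsg), desmocollins (Dsc), plakophilins (Pkp), desmoplakin (Dsp) and plakoglobin (Jup) of desmosomes, the connexins (Gja and Gjb) of gap junctions, and E-cadherin (Cdh1). They were taken by symbol, and 49 of the 56 matching rows, among 31253 gene identifiers, held at least 20 unique molecular identifiers (UMIs, 1 per captured transcript) over 4 single-cell libraries of mouse gingiva. The 49 members comprised 19 of 23 claudins, 10 of 13 connexins, 9 desmosomal cadherins, 4 plakophilins, the Tjp scaffolds and Ocln, Dsp, Jup and Cdh1. The rows left out included Gja6 with 13 UMIs, Gja10 with 1, Cldn18 with 4, Cldn16 with 1, Cldn20 with 6, and Cldn24 with 0. The members held 1713521 UMIs, 0.956% of all UMIs.

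The libraries crossed a genotype with a treatment, 1 library per group. The cKO_PD library came from mice labelled Itga9-Lyz2-cKO with periodontitis (PD), cHet_PD from Itga9-Lyz2-cHet mice with PD, cKO_control from Itga9-Lyz2-cKO mice without it, and cHet_control from Itga9-Lyz2-cHet mice without it. PD was set up with a silk ligature and Porphyromonas gingivalis at an upper molar, and gingiva was taken after 14 days. Every library, controls included, carries the Lyz2-linked Itga9 allele label. Lyz2 is a gene of myeloid cells, and in lines of this kind a Cre enzyme under its control acts in those cells. The labels do not describe the alleles further. The number of animals behind a library, their age and strain are not stated, so the differences below rest on single libraries and carry no p-values.

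Tight junctions seal the space between cells, and their claudins set which ions and molecules pass. Desmosomes hold stratified epithelium together by tying the keratin filaments of neighbouring cells to one another through desmosomal cadherins, plakoglobin, plakophilins and desmoplakin, while E-cadherin anchors the actin belt. Connexins pair across cells into channels for small molecules; connexin 43 is encoded by Gja1, connexin 26 by Gjb2 and connexin 30 by Gjb6. In gingiva the keratinized outer epithelium is rich in desmosomes, and the junctional epithelium that attaches to the tooth has wider spaces between its cells.

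Promoter sequence is shown for 4 members whose levels carry the results below: Gjb2, Gja1 and Cldn4, which were higher in PD keratinocytes, and Jup, which was lower in PD cells of the upper layers. Each line gives the 250 bases before the annotated start in RefSeq, build GRCm38.p6, 5′ to 3′ on the gene's own strand. Capitals mark matches, on either strand, to an AP-1 motif (TGANTCA) or a GC box (GGGCGG). The windows are chr14:57104703-57104952 (minus strand) for Gjb2, chr10:56377050-56377299 (plus strand) for Gja1, chr5:134946935-134947184 (minus strand) for Cldn4 and chr11:100397791-100398040 (minus strand) for Jup.
Gjb2: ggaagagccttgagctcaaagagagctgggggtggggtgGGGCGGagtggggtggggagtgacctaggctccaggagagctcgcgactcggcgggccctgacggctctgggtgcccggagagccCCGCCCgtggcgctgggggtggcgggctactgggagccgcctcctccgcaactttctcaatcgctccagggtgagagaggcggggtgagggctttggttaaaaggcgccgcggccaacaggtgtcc
Gja1: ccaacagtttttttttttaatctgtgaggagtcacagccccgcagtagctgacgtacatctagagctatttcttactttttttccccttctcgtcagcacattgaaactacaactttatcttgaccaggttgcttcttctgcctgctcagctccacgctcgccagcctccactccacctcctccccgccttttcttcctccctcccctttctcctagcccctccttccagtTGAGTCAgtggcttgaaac
Cldn4: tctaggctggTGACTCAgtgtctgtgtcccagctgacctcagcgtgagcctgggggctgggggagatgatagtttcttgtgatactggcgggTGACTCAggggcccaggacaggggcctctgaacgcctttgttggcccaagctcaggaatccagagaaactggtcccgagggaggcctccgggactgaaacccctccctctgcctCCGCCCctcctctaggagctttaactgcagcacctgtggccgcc
Jup: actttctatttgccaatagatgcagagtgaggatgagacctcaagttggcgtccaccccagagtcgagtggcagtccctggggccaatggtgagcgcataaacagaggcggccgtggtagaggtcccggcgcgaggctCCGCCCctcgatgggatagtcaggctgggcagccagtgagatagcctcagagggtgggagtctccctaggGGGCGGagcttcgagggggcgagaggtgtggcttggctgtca

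The Gja1 window held 1 AP-1 match, 19 bases before the start, and the Cldn4 window held 2, the nearer 158 bases before it. The Gjb2 window held 2 GC boxes and no AP-1 match, the nearer GC box 126 bases before the start, and the Jup window held 2 GC boxes, the nearer 42 bases before it. RefSeq windows were found for 29 of the 49 members (43 windows). An AP-1 match lay in 3 of them (6.98%), against 6.75% of 32851 promoter windows of all genes. A GC box lay in 22 (51.2%), against 32.7%, and a GRHL motif (AACNGGTT, bound by the grainyhead-like factors of epithelia) in 2 (4.65%), against 1.79%. A TATA motif (TATAAA) lay in 4 member windows (9.30%), against 12.4% of all. Both strands were searched for each motif, and none of the 4 motifs holds another. A match describes the letters of the window and is not a binding site.

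The libraries held 6684 barcodes in cKO_PD, 9072 in cHet_PD, 9331 in cKO_control and 8767 in cHet_control, with 21368197 UMIs in cKO_PD, 36231795 in cHet_PD, 62914870 in cKO_control and 58702911 in cHet_control. The lowest UMI total of a barcode was 500 in both PD libraries and 1501 in both control libraries, and median mitochondrial shares were 5.82% and 5.39% in the PD libraries (cKO_PD, cHet_PD), against 11.9% and 10.1% in the control libraries (cKO_control, cHet_control). Filtering kept 31150 of 33854 barcodes, and pairs of libraries shared 65 to 116 barcode sequences, 0.972% to 1.32% of the smaller library. Itga9, the gene named by the genotype label, had 10 UMIs in 875 myeloid cells of cKO_PD and 98 in 1035 of cHet_PD. In controls it had 19 UMIs in 82 myeloid cells of cKO_control and 47 in 80 of cHet_control. The PD libraries held other mixes of myeloid cells. In the cluster led by Pdpn and Cxcl1, with 27 cells in cKO_PD and 169 in cHet_PD, Itga9 stood at 77.4 CPM (33.4 to 152) in cKO_PD and 109 CPM (88.6 to 133) in cHet_PD, and these intervals overlap. In mononuclear phagocytes it stood at 53.1 CPM (30.9 to 85.0) in cKO_control and 173 CPM (127 to 231) in cHet_control, which do not overlap. The members were kept out of the clustering. The endothelium was named from a list of 12 markers, and each was higher there than in the other cells in every library. The same list gave the name, so this is no separate check of it. Keratinocyte clusters with no full marker match are called by their leading genes.

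Levels are given as CPM, which is 100 times the UMIs of a gene per 10000 UMIs of a cell class in a library, with exact Poisson 95% intervals that cover counting error only. A difference was called where the fold, with 10 CPM added to both sides, reached 2, the gene held 50 UMIs in 1 of the libraries, and the exact 95% interval of the ratio excluded 1. A class needed 40 cells in both libraries.

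By class of highest mean level, 21 of the 49 members belonged to keratinocytes, 16 to gland and airway-type epithelium, 4 to endothelium and 8 to other cells, and 32 reached 100 CPM in some class and library. Most desmosomal genes had their highest means in keratinocytes, with Pkp4, Dsg2, Pkp2 and Dsg1c as exceptions. Dsp, which links the desmosomal plaque to keratin, averaged 5390 CPM over the libraries in cornifying cells, the plaque protein gene Pkp1 averaged 3238 CPM and Jup averaged 2001 CPM. Gjb2 averaged 2385 CPM there and reached 6996 CPM (6888 to 7106) in a class of inflamed keratinocytes that only cHet_PD held in number, with 292 cells. Gja1 led in junctional-type keratinocytes at 1314 CPM, a class named from Odam and other markers of the tooth-facing epithelium. Several claudins had their highest means outside the stratified epithelium. Cldn10, a channel-forming claudin, averaged 1860.5 CPM in a gland cluster led by Car6 and Mfsd4a, and Cldn4 averaged 822 CPM in airway-type cells. Endothelium held the highest means of Pkp4 (428 CPM), the scaffold gene Tjp1 (239 CPM), Cldn5 (166 CPM), the main claudin of endothelium, and Gja5 (22.2 CPM), an arterial connexin. Of the rest, Gja4 led in mural cells at 84.3 CPM, Cldn11 in fibroblasts at 99.9 CPM, and Cldn13 in red cells of cHet_PD at 113 CPM, on 20 UMIs.

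Further members are placed by the same means. In cornifying keratinocytes the means were 294.7 CPM for Pkp3, 172 for Dsg1b and 67.9 for Gjb5. The inflamed class held the highest means of Dsg3 (1162 CPM), Dsc2 (873 CPM) and Cldn17 (35.9 CPM). A small cluster led by Krt17 and Ccn2 held those of Cldn23 (59.8 CPM) and the scaffold gene Tjp3 (11.9 CPM). The airway-type class held those of Cdh1 (597 CPM), Dsg2 (313 CPM), Ocln (195 CPM), Pkp2 (91.4 CPM), Cldn8 (73.0 CPM) and Cldn12 (21.2 CPM). The Car6 Mfsd4a cluster held those of Cldn7 (229 CPM), Cldn3 (143 CPM), Cldn2 (50.9 CPM), Cldn22 (24.1 CPM) and Cldn14 (12.0 CPM), and a gland class of odorant-binding proteins that of Gjb1 (10.2 CPM), a connexin of secretory cells. Cldn3, Cldn7 and Cldn8 are known as claudins of simple epithelium. Cldn15 reached 26.0 CPM in a small immune cluster and Gja3 6.75 CPM in dendritic or Langerhans cells. Cldn9, Cldn19, Dsg1c, Cldn6 and Dsg4 stayed under 2 CPM on average in each class.

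**Figure D1:**
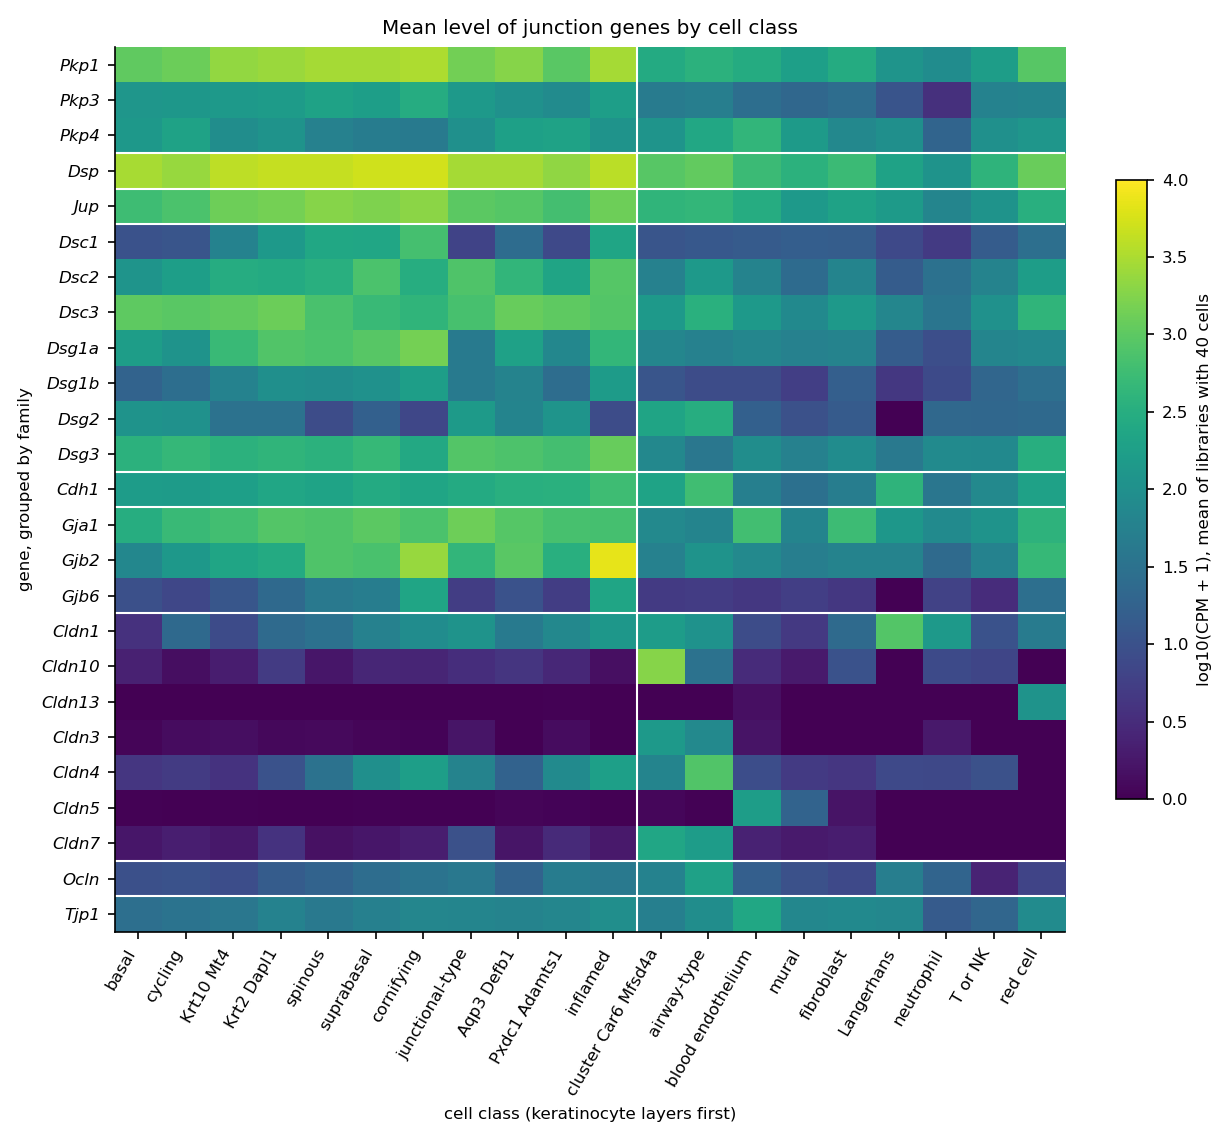
Mean level of 25 members whose highest class mean was at least 100 CPM, in the main cell classes, as log10 of CPM plus 1 on the color scale, with genes down the page and classes across. Dsp, Pkp1 and Jup are high over all keratinocyte classes, Cldn10 is high in the cluster led by Car6 and Mfsd4a, and Cldn5 is high in endothelium.

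The keratinocyte layers differed in which cadherins they carried. Dsg1a, a desmoglein of the upper layers, stood in cornifying cells at 1202 CPM in cKO_PD, 895 in cHet_PD, 1801 in cKO_control and 2020 in cHet_control. In basal cells Dsg1a stood at 214 CPM in cKO_PD, 135 in cHet_PD, 170.0 in cKO_control and 159.5 in cHet_control. Dsc1, its partner among the desmocollins, ran the same way, with 451 to 863 CPM in cornifying cells and 3.22 to 12.8 CPM in basal cells. Dsg2, a desmoglein of simple and basal epithelium, ran the other way, at 96.6 to 134 CPM in basal cells and 4.58 to 7.37 CPM in cornifying cells. Dsc3 was also lower above the basal layer, with 860 to 1280 CPM in basal cells and 294 to 535 CPM in cornifying cells. In none of these did the ranges of the basal and cornifying cells overlap across libraries. Dsg1a, Dsg1b and Dsg1c are near-identical copies, so their split is uncertain.

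In the controls the connexins also differed between layers. Gjb2 stood at 43.0 CPM in cKO_control and 29.2 in cHet_control basal cells, and at 1822 and 1454 CPM in cornifying cells of the same libraries. Gjb6, which lies beside Gjb2 on chromosome 14, had 8.42 CPM in cKO_control and 10.8 in cHet_control basal cells and 197 and 252 CPM in cornifying cells. Gja1 was spread more evenly, with 166 CPM in cKO_control and 151 in cHet_control basal cells, 533 and 749.6 CPM in cornifying cells, and 639 and 727 CPM in junctional-type cells of the same libraries. Junctional-type cells held Gja1 at 639 CPM or more but little Gjb6, at 1.16 CPM in cKO_control and 3.59 in cHet_control.

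Periodontitis was compared with control within each genotype. Over all keratinocytes, Gjb2, Cldn1, Cldn4, Cdh1, Dsg3 and Gja1 were among the members higher and Dsg1a and Dsc1 lower in cHet_PD than in cHet_control. In the cKO libraries Gja1 and Cldn1 were higher and Pkp3 lower in PD. Of 32 members with enough UMIs in the cHet pair, 9 were called, and 7.57% of all genes measured there were called. With 1 CPM added in place of 10, 16 members were called (9 higher, 7 lower), beside 21.8% of all genes. The median log2 fold was 0.05 over the members and -0.07 over all genes. In the cKO pair 3 of 31 members were called, beside 3.96% of all genes, and the medians were 0.21 over the members and -0.04 over all genes. With 1 CPM added 5 were called, beside 12.9%. The whole keratinocyte class mixes layers in other proportions in each library. Basal cells numbered 294 in cKO_PD and 112 in cHet_PD, against 1303 in cKO_control and 1946 in cHet_control, and junctional-type cells 771 in cKO_PD and 513 in cHet_PD, against 201 in cKO_control and 97 in cHet_control. Levels by layer therefore follow the pooled ones.

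The connexin gene Gjb2 stood at 555 CPM in cKO_PD and 1462 in cHet_PD keratinocytes, against 300.9 CPM in cKO_control and 319.5 in cHet_control. The cHet ratio was 4.58 (4.49 to 4.66). Within layers Gjb2 was above control in 8 of 8 layers in both genotypes, and it was called in 8 of them in cHet and in 4 in cKO. Cycling keratinocytes held 125 CPM of Gjb2 in cKO_PD and 353 in cHet_PD, against 28.3 in cKO_control and 24.1 in cHet_control. The ratios there were 4.40 (3.31 to 5.85) in cKO and 14.6 (11.5 to 18.8) in cHet, so a layer with little Gjb2 in controls had the widest cHet gap. The cKO call was lost on thinning to 1000 UMIs, at a log2 fold of 1.78. Called members made up 4 of 17 in cycling cells of cHet, beside 12.8% of all genes, and 2 of 18 in cKO, beside 6.44%. The cHet count was 2 of 9 when thinned (22.1% of all genes) and 10 of 20 at Leiden resolution 2 (14.5%). Cornifying cells, where Gjb2 is highest, held 2965 CPM in cKO_PD and 3298 in cHet_PD, against 1822 in cKO_control and 1454 in cHet_control. At a finer clustering (Leiden resolution 2) the cHet log2 fold of Gjb2 in cornifying cells was 0.61 and no longer called.

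Gja1 stood at 909 CPM in cKO_PD and 1031 in cHet_PD keratinocytes, against 394 in cKO_control and 463 in cHet_control. The ratios were 2.30 (2.25 to 2.36) in cKO and 2.23 (2.19 to 2.27) in cHet, and both were just short of a call with a mitochondrial cap of 10%, at log2 folds of 0.91 in cKO and 0.82 in cHet. Gja1 was above control in 8 of 8 layers of both genotypes, and was called in 7 layers of cKO and 6 of cHet. Basal cells held 417 CPM of Gja1 in cKO_PD and 493 in cHet_PD, against 166 in cKO_control and 151 in cHet_control, so the PD and control libraries did not overlap. In basal cells Gja1 was the only member called in cKO (1 of 22, beside 5.01% of all genes). In cHet basal cells Gja1 and Gjb2 were called (2 of 23, beside 7.21%), with 126 CPM of Gjb2 in cHet_PD and 29.2 in cHet_control. Thinned to 1000 UMIs per cell, basal Gjb2 in cHet had a log2 fold of 0.49 and was not called.

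Gjb5, another connexin gene, did not share this direction. It stood at 37.7 CPM in cKO_PD and 35.6 in cHet_PD cornifying cells, against 66.5 in cKO_control and 132 in cHet_control. It was 3.70-fold lower in cHet (2.55 to 5.56). Gjb6 in cornifying cells was at 209 CPM in cKO_PD and 249.5 in cHet_PD, against 197 in cKO_control and 252 in cHet_control, and was not called in either pair. Gjb2 and Gjb6 are neighbours on chromosome 14. In this layer Gjb2 was called in cHet and not in cKO. In suprabasal cells marked by Krt4 and Krt13, with 50 cells in cKO_PD, both genes were called higher in cKO. Gjb6 had a log2 fold of 1.32 there, and 0.07 when thinned, where it was not called.

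**Figure D2:**
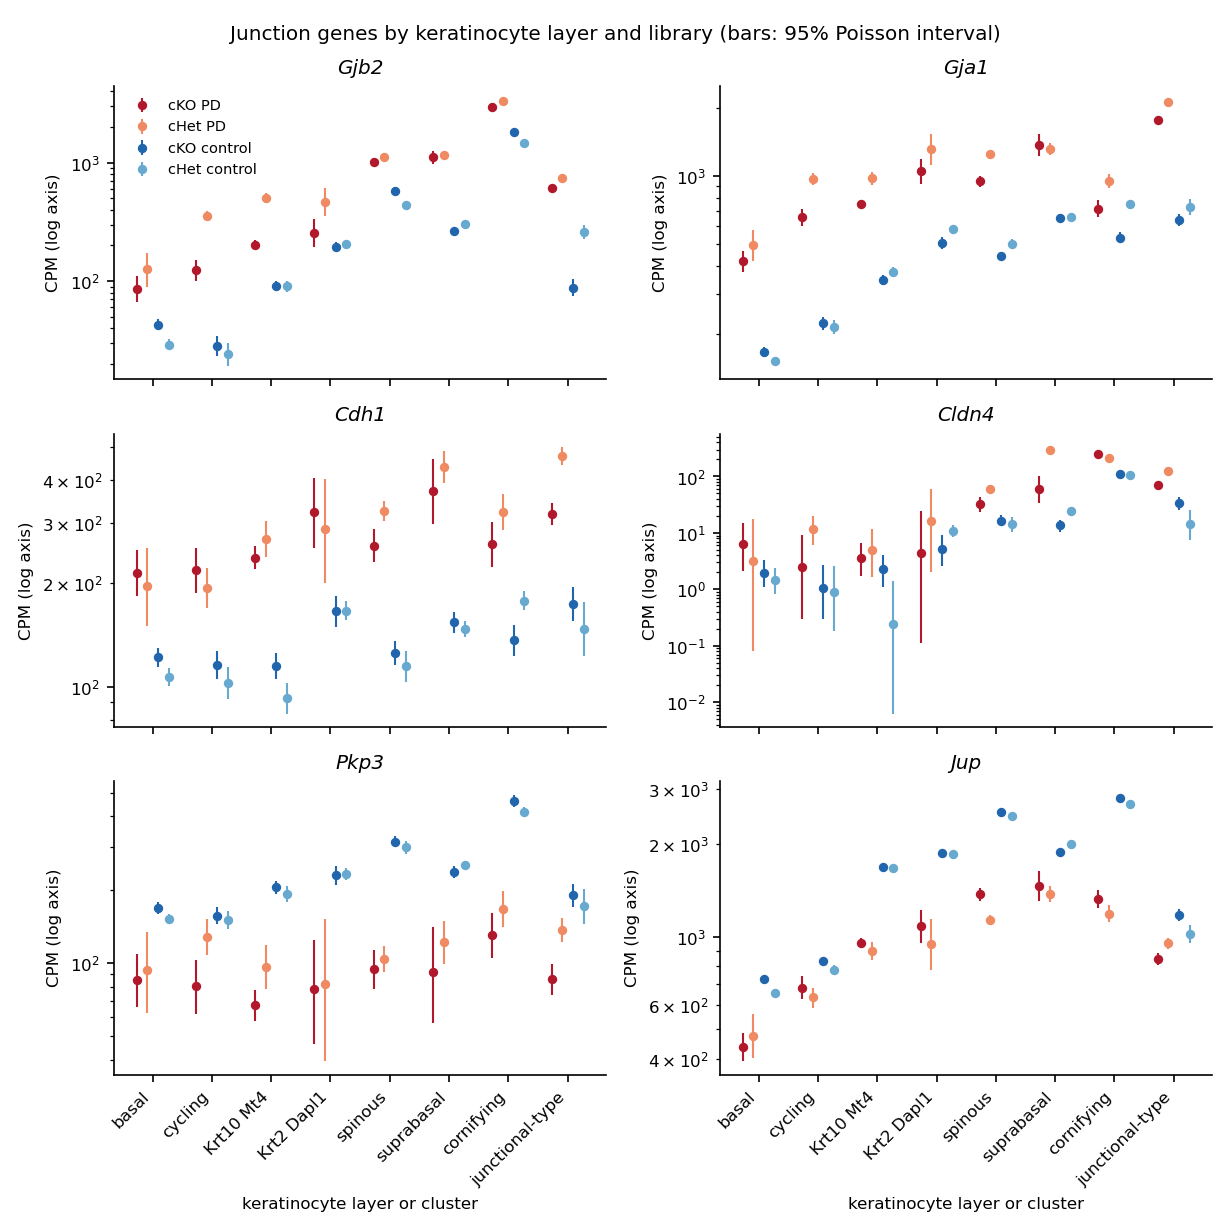
Level of 6 members by keratinocyte layer or cluster, in CPM on log axes, with 1 point for each library and 95% Poisson intervals as bars. The PD points of Gjb2, Gja1 and Cdh1 lie above the control points of the same genotype in every layer shown, and those of Pkp3 and Jup lie below them.

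E-cadherin and the claudins of the barrier also differed in cHet. Cdh1 stood at 273.5 CPM in cKO_PD and 398 in cHet_PD keratinocytes, against 158 in cKO_control and 157 in cHet_control. The cHet ratio was 2.54 (2.46 to 2.61). Cdh1 was above control in 8 of 8 layers of both genotypes, and it was called in 4 layers of cHet and 1 of cKO. Spinous cells held 257 CPM of Cdh1 in cKO_PD and 325 in cHet_PD, against 126 in cKO_control and 115 in cHet_control. Thinned to 1000 UMIs per cell, Cdh1 over all cHet keratinocytes had a log2 fold of 0.86 and was not called.

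Cldn1, a sealing claudin, stood at 37.8 CPM in cKO_PD and 101 in cHet_PD keratinocytes, against 11.7 in cKO_control and 21.5 in cHet_control. The ratios were 3.23 (2.83 to 3.69) in cKO and 4.70 (4.38 to 5.06) in cHet. With a mitochondrial cap of 10% the cKO log2 fold of Cldn1 was 0.85 and not called. Cldn4, a claudin of the upper layers and of simple epithelium, stood at 38.8 CPM in cKO_PD and 95.5 in cHet_PD, against 18.4 in cKO_control and 25.1 in cHet_control, a cHet ratio of 3.81 (3.56 to 4.08). The cHet gap in Cldn4 was wide in the suprabasal class marked by Krt4 and Krt13, with 61.2 CPM in cKO_PD and 293 in cHet_PD, against 13.6 in cKO_control and 24.8 in cHet_control. In that class 7 of 28 members were called in cHet, beside 11% of all genes, and 7 of 25 in cKO, beside 10.5%. Thinned, these counts were 4 of 14 in cHet, beside 18.1%, and 4 of 13 in cKO, beside 13.6%. The class pools a cluster led by Krt4 and Krt13 with one led by Krt76 and Krt24, in proportions that differ between libraries. In the first cluster alone Cldn4 had 312 CPM in cHet_PD and 23.7 in cHet_control.

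Ocln, a membrane protein of tight junctions, stood at 22.1 CPM in cKO_PD and 42.0 in cHet_PD keratinocytes, against 16.0 in cKO_control and 17.8 in cHet_control. Ocln was called higher in 3 of 6 measured layers of cHet and in 0 of 4 of cKO. In spinous cells it had 18.6 CPM in cKO_PD and 32.7 in cHet_PD, against 11.3 in cKO_control and 9.51 in cHet_control, a cHet log2 fold of 1.13 that was -0.11 when the members were used in the clustering. Thinned, the cHet calls were lost, at log2 folds of 1.78 in spinous, 1.32 in suprabasal and 0.67 in junctional-type cells, and the suprabasal one was lost at 0.77 at Leiden resolution 2. In the Krt2 Dapl1 cluster Ocln had 0 UMIs in cHet_PD and 17.2 CPM in cHet_control, and the gap was not called. Tjp1, a scaffold under tight junctions, stood at 53.2 CPM in cKO_PD and 72.7 in cHet_PD, against 40.1 in cKO_control and 45.4 in cHet_control, and was not called over all keratinocytes.

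Desmosomal genes did not move in 1 direction. The desmoglein gene Dsg3, whose protein is an anchor of the lower layers, stood at 599.9 CPM in cKO_PD and 755 in cHet_PD keratinocytes, against 375 in cKO_control and 333 in cHet_control. The cHet ratio of Dsg3 was 2.27 (2.22 to 2.31), and thinned to 1000 UMIs its log2 fold was 0.92 and not called. Dsg1a, of the upper layers, stood at 409 CPM in cKO_PD and 229 in cHet_PD, against 573 in cKO_control and 687 in cHet_control, and was 3.01-fold lower in cHet (2.93 to 3.09). Dsc1 stood at 98.8 CPM in cKO_PD and 61.0 in cHet_PD, against 132 in cKO_control and 177 in cHet_control, and was 2.89-fold lower in cHet (2.75 to 3.05). Within cHet the desmoglein of the lower layers was higher and that of the upper layers lower. Dsg1a was below control in 8 of 8 cHet layers, while in cKO it was above control in 5 layers and below in 3.

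Within cornifying cells Dsc2 and Dsg3 were higher and Dsg1a lower in cHet PD. Dsc2 had 438 CPM in cKO_PD and 446 in cHet_PD, against 189.5 in cKO_control and 169.8 in cHet_control, with ratios of 2.31 (2.0 to 2.67) in cKO and 2.63 (2.32 to 2.97) in cHet. Dsg3 had 303 CPM in cKO_PD and 426 in cHet_PD, against 162 in cKO_control and 136 in cHet_control, a cHet ratio of 3.15 (2.76 to 3.58). Both PD libraries were above both controls for Dsc2 and Dsg3. In this layer 8 of 27 members were called in cHet, beside 12.4% of all genes, and 5 of 23 in cKO, beside 11.5%. Thinned, they were 5 of 15 in cHet, beside 23.3%, and 3 of 11 in cKO, beside 19.5%. The Dsc2 call in cHet was lost at log2 folds of 0.97 when thinned and 0.99 with members used in the clustering, and the Dsg1a call at -0.95 when thinned.

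Among the plaque genes Pkp3 and, in some layers, Jup were lower in PD. Pkp3, which links desmosomal cadherins to desmoplakin, stood at 82.7 CPM in cKO_PD and 119 in cHet_PD keratinocytes, against 227 in cKO_control and 228 in cHet_control. It was 2.74-fold lower in cKO (2.57 to 2.93). Pkp3 was below control in 8 of 8 layers of both genotypes and was called in 6 layers of cKO and 3 of cHet. In cornifying cells Pkp3 had 131 CPM in cKO_PD and 167 in cHet_PD, against 463 in cKO_control and 418 in cHet_control, 3.54-fold lower in cKO (2.86 to 4.44) and 2.50-fold lower in cHet (2.10 to 3.0). In spinous cells the same gene was 3.32-fold lower in cKO (2.75 to 4.05) and 2.88-fold lower in cHet (2.50 to 3.31), the second of which was short of a call with members used in the clustering, at a log2 fold of -0.94. Spinous cells had 8 of 22 members called in cHet, beside 9.12% of all genes, and 3 of 22 in cKO, beside 5.54%. The cHet count was 4 of 12 when thinned (18.5%) and 5 of 21 with members used in the clustering (7.25%). The cKO count was 1 of 12 when thinned (11.3%), 6 of 15 at Leiden resolution 2 (13.6%) and 5 of 22 with 1 CPM added (12.2%). The clusters between basal and spinous cells gave a like count. The one led by Krt10 and Mt4 had 5 of 19 members called in cHet, beside 8.52% of all genes, and 4 of 19 in cKO, beside 5.14%, and the one led by Krt2 and Dapl1 had 4 of 25 called in cHet, beside 8.37%, and 4 of 20 in cKO, beside 8.71%.

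Jup, the plaque protein shared by desmosomes and adherens junctions, had 1322 CPM in cKO_PD and 1186 in cHet_PD cornifying cells, against 2817 in cKO_control and 2680.4 in cHet_control. It was 2.13-fold lower in cKO (1.99 to 2.28) and 2.26-fold lower in cHet (2.12 to 2.41). The cKO call was lost at a log2 fold of -0.98 when the members were used in the clustering. Over all keratinocytes Jup had 887 CPM in cKO_PD and 915 in cHet_PD, against 1517 in cKO_control and 1558 in cHet_control, short of a 2-fold gap. Dsp was likewise below control in 8 of 8 layers of both genotypes and called in none, with 4414 CPM in cKO_PD and 3920.3 in cHet_PD cornifying cells, against 6237 in cKO_control and 6988 in cHet_control. TMM scaling in place of class totals moved the log2 folds of PD over control by -0.33 to 0.17 among the 8 layers. With it the junctional-type layer of cHet turned above control for both Jup and Dsp, while Gjb2, Gja1, Cdh1 and Pkp3 kept their direction in every layer. Pkp1 stood at 1792 CPM in cKO_PD and 1831 in cHet_PD keratinocytes, against 2052 in cKO_control and 2253 in cHet_control, and its layers lay on both sides of 0.

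**Figure D3:**
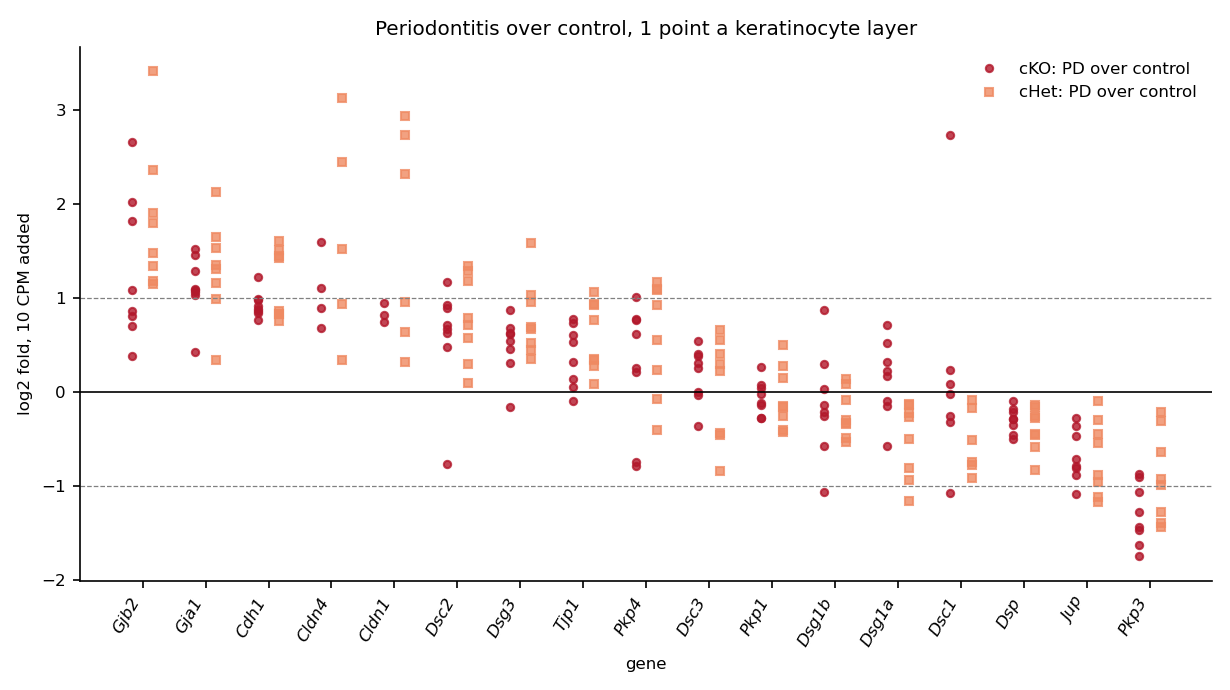
Log2 fold of PD over control with 10 CPM added, for 17 members, with 1 point for each keratinocyte layer in cKO and cHet and dashed lines at 2-fold. All points of Gjb2, Gja1 and Cdh1 lie above 0 and all points of Dsp, Jup and Pkp3 lie below it, while Dsg1a lies below 0 in every cHet layer and on both sides in cKO.

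Junctional-type keratinocytes, marked by Odam and related genes of the epithelium at the tooth, held the largest share of called members of the layers in cHet, 9 of 21, beside 17.4% of all genes. Thinned, 5 of 13 were called, beside 26.1%. The median log2 fold was 0.69 over the members and 0.16 over all genes. Cldn1 had 93.3 CPM in cKO_PD and 277 in cHet_PD there, against 48.7 in cKO_control and 27.5 in cHet_control, a cHet ratio of 10.1 (6.65 to 16.0). Cldn4 had 70.8 CPM in cKO_PD and 123 in cHet_PD, against 33.6 in cKO_control and 14.4 in cHet_control, a cHet ratio of 8.56 (4.82 to 16.8). Thinned to 1000 UMIs, the Cldn4 calls of cHet in suprabasal and junctional-type cells were lost although the log2 folds were 3.29 and 2.50. The PD libraries were above both controls for each of these claudins over the whole class, and the cHet_control values rest on 97 cells. Cdh1 had 318 CPM in cKO_PD and 469.5 in cHet_PD, against 174 in cKO_control and 147 in cHet_control. The cHet ratio of Cdh1 was 3.19 (2.64 to 3.87).

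Gja1 reached its highest keratinocyte levels in junctional-type cells of PD, at 1768 CPM in cKO_PD and 2122 in cHet_PD, against 639 in cKO_control and 727 in cHet_control. Gjb2 had 609 CPM in cKO_PD and 740.1 in cHet_PD, against 88.2 in cKO_control and 259.9 in cHet_control. The ratios of Gjb2 were 6.91 (5.84 to 8.22) in cKO and 2.85 (2.47 to 3.29) in cHet, and the cKO_control value was itself 2.95-fold below cHet_control (2.38 to 3.65), the only 1 of 19 members called between the controls, beside 0.899% of all genes. Thinned, that call too was lost, at -1.32 in log2. In cKO, Gjb2 and Gja1 were higher and Dsg1b and Pkp3 lower, 4 of 20 members beside 9.66% of all genes. With a mitochondrial cap of 10% this was 2 of 18, beside 6.65%. Under that cap the cKO log2 fold of Gja1 was 0.62 and not called. Gjb6 remained low, at 6.76 CPM in cKO_PD, 5.61 in cHet_PD, 1.16 in cKO_control and 3.59 in cHet_control. The class pools a cluster led by BC037156 and Odam with one led by Cdo1 and Cxcl5, and the Odam cluster made up 414 of 771 cells in cKO_PD and 264 of 513 in cHet_PD, against 44 of 201 in cKO_control and 19 of 97 in cHet_control.

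Within these clusters the directions held in part. In the Cdo1 Cxcl5 cluster Gja1 had 897 CPM in cKO_PD and 1383 in cHet_PD, against 276 in cKO_control and 351 in cHet_control, with ratios of 3.25 (2.89 to 3.67) in cKO and 3.94 (3.44 to 4.53) in cHet. In the BC037156 Odam cluster, which only cHet_control lacked in number, Gja1 had 2709 CPM in cKO_PD and 2764 in cHet_PD, against 2044 in cKO_control, a cKO ratio of 1.33 (1.22 to 1.44) that was not called. The tooth-facing cells with the most Odam held high Gja1 in the control as well. Cldn1 in the BC037156 Odam cluster had 129 CPM in cKO_PD and 350.4 in cHet_PD, against 149.6 in cKO_control, and Cldn4 had 128 in cKO_PD and 179 in cHet_PD, against 158 in cKO_control, so neither claudin was higher in cKO there. Gjb2 was called in both clusters of cKO, at ratios of 3.30 (2.74 to 4.0) in the BC037156 Odam cluster, where 4 of 17 members were called beside 11.8% of all genes, and 4.89 (3.18 to 7.74) in the Cdo1 Cxcl5 cluster, where 5 of 17 were called beside 12.6%. In cHet the Cdo1 Cxcl5 cluster had 9 of 17 called, beside 22.5%. Between the control libraries Gjb2 in the Cdo1 Cxcl5 cluster had 19.7 CPM in cKO_control and 20.2 in cHet_control, so the gap between them over the whole class was not seen there.

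The genotypes were then compared within a treatment. Over all keratinocytes Gjb2, Cldn1 and Cldn4 were lower in cKO_PD than in cHet_PD, 3 of 29 members beside 1.06% of all genes, and none was higher. Gjb2 was 2.64-fold lower (2.57 to 2.7), Cldn1 2.68-fold lower (2.43 to 2.96) and Cldn4 2.46-fold lower (2.24 to 2.72). The median log2 fold was -0.25 over the members and 0.01 over all genes. Between the control libraries 0 of 32 members were called, beside 0.345% of all genes, and the member median was -0.10. Whether the PD differences and the control differences differ from each other cannot be tested with 1 library per group.

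The PD libraries held keratinocyte clusters with almost no control cells, and they differed in size. The cluster led by Aqp3 and Defb1 had 556 cells in cKO_PD and 1850 in cHet_PD, the cluster led by Pxdc1 and Adamts1 had 523 in cKO_PD and 1835 in cHet_PD, and the inflamed class had 20 in cKO_PD and 292 in cHet_PD. Within the Aqp3 Defb1 cluster Gjb2 had 459 CPM in cKO_PD and 1415 in cHet_PD, and it was the only called member of 24, beside 0.757% of all genes. Within the Pxdc1 Adamts1 cluster Gjb2 had 120 CPM in cKO_PD and 549.5 in cHet_PD, Cldn4 had 29.9 in cKO_PD and 131 in cHet_PD, and Cldn1 had 28.2 in cKO_PD and 115 in cHet_PD. All 3 were lower in cKO_PD, of 25 members and beside 1.51% of all genes. Gjb2 was thus lower in cKO_PD in both clusters, and Cldn1 and Cldn4 were called in the second. In the Aqp3 Defb1 cluster Cldn1 had 35.6 CPM in cKO_PD and 52.4 in cHet_PD, and Cldn4 had 15.2 in cKO_PD and 19.2 in cHet_PD.

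In the layers that both PD libraries held, the gap was less regular. Gjb2 was below cHet_PD in 8 of 8 layers of cKO_PD, and was called in 2 of them. In cycling cells, with 125 CPM in cKO_PD and 353 in cHet_PD, it was 2.83-fold lower (2.27 to 3.57), and Cldn1 there had 18.9 CPM in cKO_PD and 62.0 in cHet_PD. In cycling cells 3 of 15 members were called, beside 1.69% of all genes, with Dsg1a higher. Thinned to 1000 UMIs these calls were lost, at log2 folds of -0.97 for Gjb2, -0.995 for Cldn1 and 1.56 for Dsg1a, against -1.43, -1.32 and 1.10 unthinned. Junctional-type cells had 1 of 21 members called between the PD libraries, Cldn1, which was 2.97-fold lower in cKO_PD (2.54 to 3.5), beside 2.67% of all genes. The count was 2 with TMM scaling, beside 3.0%, and 3 with 1 CPM added, beside 5.07%. Suprabasal cells had 7 of 18 called, beside 13.5%, but only 50 cells in cKO_PD, and the Krt4 Krt13 cluster was 17 of these 50 against 116 of 133 in cHet_PD. Dsc1 had 634 CPM there in cKO_PD and 90.9 in cHet_PD, beside that mix. The suprabasal count was 1 of 20 at Leiden resolution 2, beside 3.69% of all genes, and 2 of 10 when thinned, beside 17.2%. At Leiden resolution 2 the calls of Cldn4, Cldn1, Ocln, Dsc2 and Dsg1a between these PD libraries were lost. Thinned to 1000 UMIs, those of Cldn4, Cldn1, Ocln and Dsc1 were lost, Dsc1 at a log2 fold of 1.81.

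Endothelial cells form tight junctions with Cldn5 and gap junctions with Gja1, Gja4 and Gja5, of which the last pair are typical of arteries. In endothelium, Gja1 was higher and Cldn5 lower in PD of both genotypes. Gja1 stood at 839 CPM (787 to 894) in cKO_PD and 1184 (1142 to 1228) in cHet_PD, against 214 (192 to 238) in cKO_control and 224 (195 to 257) in cHet_control. The ratios of Gja1 were 3.91 (3.46 to 4.44) in cKO and 5.28 (4.59 to 6.10) in cHet. Cldn5 stood at 46.5 CPM (34.8 to 60.8) in cKO_PD and 87.1 (75.9 to 99.6) in cHet_PD, against 279 (254 to 306) in cKO_control and 250.1 (219 to 284) in cHet_control. It was 6.01-fold lower in cKO (4.51 to 8.14) and 2.87-fold lower in cHet (2.38 to 3.47). The PD and control libraries were far apart for both genes. In cHet 6 of 19 members were called, beside 13.6% of all genes, and in cKO 5 of 17, beside 11.8%. The cKO count was 3 of 8 when thinned (20.5%), 2 of 13 without the highest doublet scores (12.6%) and 2 of 15 with the mitochondrial cap (12.8%).

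The endothelial cells were clustered again, since the class was mixed in other proportions in PD and control. Sub-clusters named from their markers as keratinocytes, neutrophils, mural cells or lymphatic vessels were left out, a step added after the data were seen. This kept 379 cells in cKO_PD, 699 in cHet_PD, 178 in cKO_control and 71 in cHet_control. A kept sub-cluster led by BC037156 and Cd36 also had Odam, like BC037156 a junctional-type marker, among its top 10 genes. It held 122 cells in cKO_PD and 328 in cHet_PD, against 7 in cKO_control and 4 in cHet_control. The part of junctional-type RNA in the reduced class was not tested. Gja1 then stood at 847 CPM in cKO_PD and 1304 in cHet_PD, against 184 in cKO_control and 281 in cHet_control. Cldn5 stood at 53.9 CPM in cKO_PD and 104 in cHet_PD, against 374 in cKO_control and 330.4 in cHet_control. Both stayed called in both genotypes, with Cldn5 6.94-fold lower in cKO (5.12 to 9.59) and 3.19-fold lower in cHet (2.56 to 3.97). In the sub-cluster led by Cytl1 and Sema3g, which each library held in 11 to 60 cells, Cldn5 had 111 CPM in cKO_PD and 181 in cHet_PD, against 1214 in cKO_control and 1035 in cHet_control. Gja1 in that sub-cluster had 583 CPM in cKO_PD and 572 in cHet_PD, against 130 in cKO_control and 222 in cHet_control. The direction of both genes was the same there as in the whole class.

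Gja4 and Gja5 were less steady. Gja4 stood at 63.1 CPM in cKO_PD and 17.0 in cHet_PD endothelium, against 52.8 in cKO_control and 68.7 in cHet_control. It was 4.04-fold lower in cHet PD than control (2.69 to 6.11), and 3.71-fold higher in cKO_PD than in cHet_PD (2.50 to 5.56). The first of these calls was lost in the reduced class, with 20.8 CPM in cHet_PD and 84.2 in cHet_control. Gja4 held 38 and 39 UMIs in these libraries, under the minimum of 50, so that pair was not measured there. The second call was kept, with 74.6 CPM in cKO_PD. Both were lost when cells were thinned, at log2 folds of -0.99 and 1.51, and the first also with the mitochondrial cap, at -1.52. Gja5 stood at 47.3 CPM in cKO_PD and 26.7 in cHet_PD, against 6.21 in cKO_control and 8.59 in cHet_control, a cKO ratio of 7.62 (3.84 to 16.8). In the reduced class it had 56.2 CPM in cKO_PD, on 49 UMIs and so under the minimum of 50, and 8.18 in cKO_control. The call was also lost with the mitochondrial cap, the common UMI floor, thinning and the removal of high doublet scores, where the log2 folds were 1.71 to 2.32, against 1.82 in the whole class. Gja5 overlaps Gpr89 and other genes on the opposite strand, and whether the counting used strand is not given in the sources used here. Between the PD libraries 2 of 19 members were called, beside 2.47% of all genes, and between the control libraries 0 of 15, beside 1.40%.

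**Figure D4:**
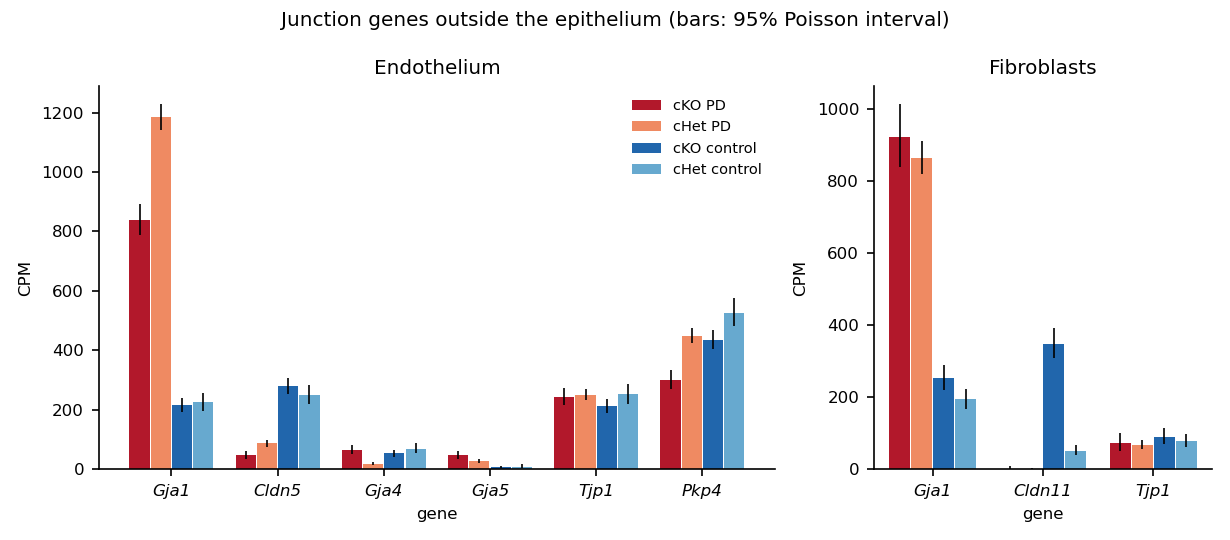
Level in CPM of 6 members in endothelium and 3 in fibroblasts, with 1 bar for each library and 95% Poisson intervals. The Gja1 bars of both PD libraries are above both controls in each cell type, and the Cldn5 bars of both PD libraries are below both controls in endothelium.

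Keratinocyte RNA was also found in endothelium and fibroblasts. A set of 18 basal and spinous keratinocyte markers had a summed level in endothelium that was 13.4% to 19.4% of that in keratinocytes, and in fibroblasts 13.8% to 17.5%. The endothelial level of Gjb2 was 12.2% of its keratinocyte level in cKO_PD, 13.4% in cHet_PD, 7.85% in cKO_control and 5.71% in cHet_control, below the marker set in every library. The Gjb2 calls in endothelium, with 67.5 CPM in cKO_PD and 197 in cHet_PD, against 23.6 in cKO_control and 18.3 in cHet_control, stand beside these shares. In the reduced endothelium Gjb2 had 21.8 CPM in cKO_PD and 70.7 in cHet_PD, against 20.9 in cKO_control and 10.8 in cHet_control, and the cHet call was kept. The reduced class still held the sub-cluster led by BC037156 and Cd36. The part of keratinocyte RNA in these calls was not tested. Gja1 in endothelium was 92.3% of its keratinocyte level in cKO_PD, 115% in cHet_PD, 54.4% in cKO_control and 48.5% in cHet_control. Gja1 was above the share of the marker set in every library.

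Fibroblasts also held more Gja1 in PD. It stood at 923 CPM in cKO_PD and 865 in cHet_PD, against 252 in cKO_control and 194 in cHet_control, with ratios of 3.66 (3.10 to 4.35) in cKO and 4.46 (3.83 to 5.21) in cHet. Cldn11, whose protein forms tight junctions of myelin and Sertoli cells, was at 0 CPM in cKO_PD and 0.638 in cHet_PD fibroblasts, on 0 and 1 UMIs, against 348 CPM in cKO_control and 51.0 in cHet_control, on 279 and 51 UMIs. In cKO it was at least 55.1-fold lower, against a floor of 3 counts, and in cHet the ratio was 0.0125 (0.000311 to 0.0729). The controls differed too, with Cldn11 6.82-fold higher in cKO_control than in cHet_control (5.04 to 9.38), 1 of 2 called among 12 members, beside 12% of all genes. Fibroblasts had 5 of 15 members called in cHet, beside 20.6% of all genes, and 3 of 9 in cKO, beside 29.4%, so large gaps were common in this class, and TMM scaling moved all cKO folds there by 0.38 in log2. Mural cells, with 43 to 162 cells, had 3 of 4 members called in cHet, beside 30.6% of all genes, and 5 of 7 in cKO, beside 20%, all lower and all genes of the keratinocyte desmosome. The keratinocyte marker set stood there at 3.6% of its keratinocyte level in cKO_PD and 6.30% in cHet_PD, against 12.9% in cKO_control and 13.2% in cHet_control, and its part in these calls was not tested. In fibroblasts, with as few as 112 cells in cKO_control and 146 in cKO_PD, a change in the kinds of fibroblasts caught and a change within a cell cannot be told apart.

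Gland and airway-type cells were compared in the cKO libraries, since cHet_PD held only 19 and 8 cells of the clusters concerned. In the gland cluster led by Car6 and Mfsd4a, with 511 cells in cKO_PD and 173 in cKO_control, 11 of 24 members were called, beside 12.2% of all genes. The median log2 fold was 0.45 over the members and 0.01 over all genes. Cldn4 had 148 CPM in cKO_PD and 9.36 in cKO_control, a ratio of 15.8 (9.95 to 26.5), and 33.4 CPM in cHet_control. Ocln had 141 CPM in cKO_PD and 16.7 in cKO_control, a ratio of 8.43 (5.92 to 12.4), and 20.3 CPM in cHet_control. The control libraries lay close together for Ocln, and 0 of 22 members were called between them, beside 0.787% of all genes. At Leiden resolution 2 the cluster led by Car6 and Mfsd4a held 310 cells in cKO_PD and 167 in cKO_control. A separate cluster led by Kcnma1 and Chrm3 then held 202 cells in cKO_PD and 9 in cKO_control, with a median of 825 UMIs. How the folds of the 511-cell cluster depend on this split was not tested.

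Cdh1 in the same cluster had 422 CPM in cKO_PD and 63.0 in cKO_control, a ratio of 6.70 (5.57 to 8.11), and Cldn1 had 355 CPM in cKO_PD and 62.5 in cKO_control, a ratio of 5.68 (4.71 to 6.90). Both lay above the keratinocyte levels of the same library, 273.5 CPM for Cdh1 and 37.8 for Cldn1. Dsg3, Tjp1 and Dsg2 were also higher, at ratios of 2.26 to 2.39. Of these, Dsg3 at 119 CPM in cKO_PD is beside 599.9 CPM in keratinocytes of that library, and the keratinocyte marker set stood in the cluster at 12.1% of its keratinocyte level in cKO_PD and 10.9% in cKO_control. The claudins typical of gland epithelium did not follow. Cldn3 had 59.1 CPM in cKO_PD and 170.4 in cKO_control, 2.88-fold lower, and Cldn22, which overlaps Wwc2 on the opposite strand, had 10.0 CPM in cKO_PD and 40.4 in cKO_control. Cldn10 had 2289.6 CPM in cKO_PD and 1847 in cKO_control, and Cldn7 had 132 in cKO_PD and 261 in cKO_control, and neither was called. Pkp3 was lower, with 20.5 CPM in cKO_PD and 53.2 in cKO_control, the direction it had in keratinocytes.

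The airway-type cluster led by Cyp2a5 and Wfdc18, with 108 cells in cKO_PD and 49 in cKO_control, had 8 of 19 members called, beside 17.7% of all genes. Cdh1 had 1282 CPM in cKO_PD and 211 in cKO_control, a ratio of 6.09 (5.11 to 7.30). Cldn4 had 1750.2 CPM in cKO_PD and 598 in cKO_control, and Ocln had 359 in cKO_PD and 109.6 in cKO_control. Cldn7 was the only called member that was lower, with 171 CPM in cKO_PD and 388 in cKO_control. Cldn4, Ocln, Cdh1 and Cldn1 were higher in both clusters, and both clusters come from the same 2 libraries.

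**Figure D5:**
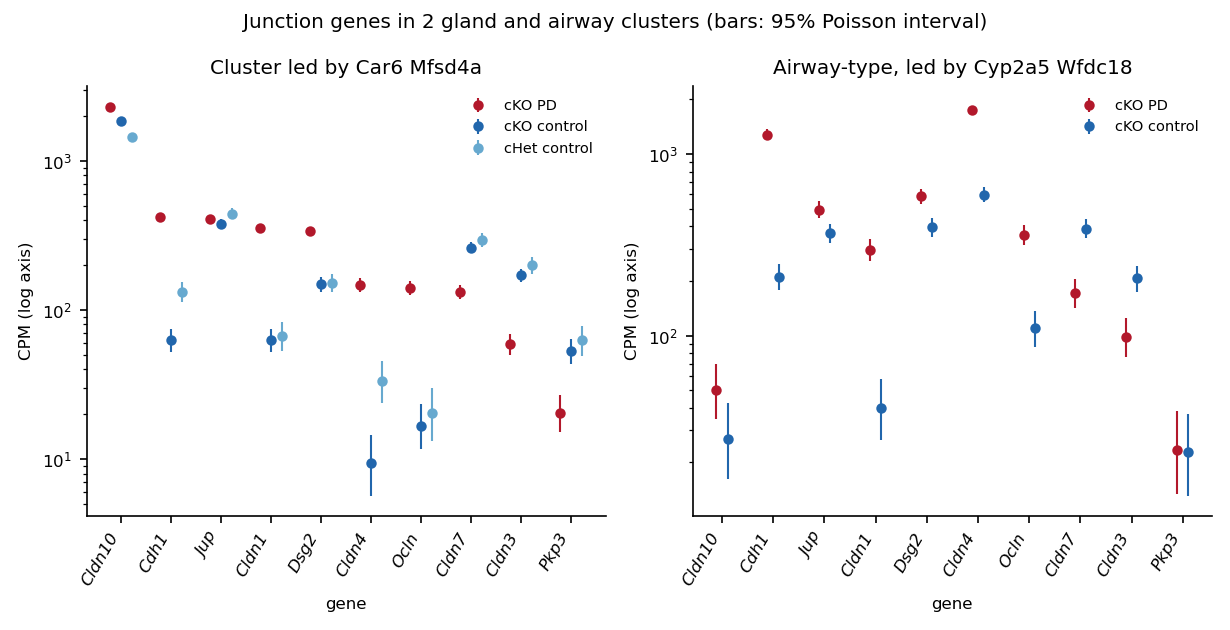
Level of 10 members in the cluster led by Car6 and Mfsd4a and in the airway-type cluster led by Cyp2a5 and Wfdc18, in CPM on log axes with 95% Poisson intervals. Cdh1, Cldn1, Cldn4 and Ocln lie higher in cKO_PD than in cKO_control in both panels, and Cldn3 and Cldn7 lie lower.

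Cldn1 was also high in immune classes. Cldn1, which Langerhans cells are known to express, had 844 CPM (742 to 955) in dendritic or Langerhans cells of cHet_PD, on 250 UMIs in 73 cells. The other libraries held 21 to 28 such cells and gave no level. An immune cluster led by Ccrl2 and Acod1, with 100 cells in cHet_PD, held 271 CPM of Cldn1 in that library. Keratinocytes of cHet_PD held 101 CPM of Cldn1.

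Genes that work with these junctions were counted in keratinocytes by lists of partners. Among tight junction partners 2 of 31 were higher and 0 lower in cHet PD, and 2 of 30 were higher and 0 lower in cKO PD. Epcam, which binds claudins in epithelium, had 98.9 CPM in cKO_PD and 161 in cHet_PD, against 29.9 in cKO_control and 26.8 in cHet_control, and was called in both genotypes. Among adherens junction genes 3 of 21 were higher and 1 lower in cHet, and 1 of 20 higher and 1 lower in cKO. Cdh3, the P-cadherin gene, had 60.6 CPM in cKO_PD and 81.8 in cHet_PD, against 22 in cKO_control and 20.8 in cHet_control, and was the adherens gene called higher in both. Lmo7, which ties nectins to actin, was called lower in both, with 48.2 CPM in cKO_PD and 35.1 in cHet_PD, against 133 in cKO_control and 141 in cHet_control.

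The partners of the desmosome and the anchors to the basement membrane were called on both sides. Among desmosome partners 1 of 12 was lower in each genotype, Krt5 in cHet and Krt14 in cKO, and both are basal keratins. Hemidesmosome genes had 4 of 14 higher and 1 lower in cHet, and 0 of 14 higher and 2 lower in cKO. Dst, the plaque linker of hemidesmosomes, was lower in both genotypes, with 467 CPM in cKO_PD and 279 in cHet_PD, against 1374 in cKO_control and 1133 in cHet_control. Basal cells, which carry Dst, Krt5 and Krt14 as markers, were 294 of 3852 keratinocytes in cKO_PD and 112 of 5921 in cHet_PD. In controls they were 1303 of 5612 in cKO_control and 1946 of 6988 in cHet_control. The part of this mix in these pooled calls was not tested. None of 22 junction regulators in cHet and none of 23 in cKO was called. In either direction, 5 of 14 hemidesmosome genes and 4 of 21 adherens genes were called in cHet, beside 7.57% of all genes, and 2 of 14 and 2 of 20 in cKO, beside 3.96%.

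Across 98 points, each a cell class in a library, the levels of the members were set against each other as log values. Dsp ran closest to Pkp1 and to Jup, with Pearson correlations of 0.97 each. Gja1 was most like Dsg3 at 0.82, Cldn4 most like Ocln at 0.84 and Cldn3 most like Cldn7 at 0.96. Gjb2 was most like Dsg1b at 0.74, Cdh1 most like Dsc2 at 0.74 and Cldn5 most like Gja4 at 0.75. The points share libraries and cell classes, so these values describe the likeness of profiles only.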

How the data were processed

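Single cells of mouse gingiva were captured on BD Rhapsody, per the labels' protocols, while another label names 10x Genomics; the 27-base barcodes are of the BD kind. The deposited values are raw counts of UMIs for each gene in each barcode. The submitters' processing notes name fastp, STARsolo 2.7.10a and the mm10 build. Whether counting used strand is not given in the sources used here, and 6 of the 49 members overlap another counted gene, each on the opposite strand.

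Barcodes with 200 genes and at most 20% mitochondrial UMIs were kept. Cells were scaled to 10000 UMIs and clustered with the members left out, on 2000 variable genes, 30 components and 15 neighbours at Leiden resolution 1 with seed 1. A cluster was named where 3 markers of a type were in its top 50 genes and 1 in its top 10, ranked with 50 CPM added. Scrublet, run with an expected doublet share of 5%, marked 2 cells in cKO_PD, 1 in cHet_PD and 0 in either control library, so doublets were in effect not removed. UMIs were then summed per class and library and given as CPM. Intervals are exact (Poisson for levels, binomial for ratios, 95%) and cover counting error only. With 1 library per group there was no test.

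The text names members by their class of highest level, members with 100 CPM in a named class, and the members called by size, at most 8 for a pair and class; a few members and partners are not reported here, though the counts include them. The members and gene lists were chosen with earlier results of these data known. The size calls were checked on simulated counts. The alternatives were TMM factors, 1 CPM added, no UMI minimum, a common floor of 1501 UMIs, thinning to 1000 UMIs, resolution 2, members used in the clustering, the top 5% of doublet scores left out and a mitochondrial cap of 10%. Chosen after seeing the data were the endothelial sub-clusters (resolution 0.5), the levels per cluster in the suprabasal, junctional-type and airway-type classes, and the comparison with keratinocyte RNA in other classes. Promoter windows came from RefSeq. Python 3.11.15, numpy 2.4.6, scipy 1.17.1, pandas 2.3.3, scanpy 1.11.5, scikit-learn 1.9.0, igraph 0.11.9 and matplotlib 3.10.9 were used.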

Additional observations from a re-analysis of the deposited data

Results flagged for a closer look

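Of the cases where PD stood on opposite sides of control in the genotypes, 7 were flagged, as log2 folds with 10 CPM added. They are not all such cases. Dsg1a alone was below control in 8 of 8 cHet layers and above it in 5 of 8 cKO layers. The differences were not tested, since each group was 1 library. None of the 14 flagged folds passed the rule of size.

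Over all keratinocytes Cldn10 had 0.26 in cKO and -0.12 in cHet. In the cluster led by Krt10 and Mt4, Dsg1b had 0.30 in cKO and -0.54 in cHet. Dsg1a had 0.22 in cKO and -0.13 in cHet in spinous cells, and 0.72 in cKO and -0.27 in cHet in suprabasal cells. Dsc2 had -0.77 in cKO and 0.71 in cHet in suprabasal cells. Dsc3 had 0.25 in cKO and -0.84 in cHet in cornifying cells. Dsg2 had -0.31 in cKO and 0.32 in cHet in junctional-type cells. In 6 of the 7 flagged cases the gene is a desmosomal cadherin, a family of 9 among the 49 members. Single layers had only 17 to 28 members with enough UMIs in the cHet pair, so 9 of 49 is no base for this share. The share of this family among all opposite-side cases was not counted. The suprabasal values stand beside the mix of clusters in that class, where the cluster led by Krt4 and Krt13 made up 17 of 50 cells in cKO_PD and 116 of 133 in cHet_PD, against 140 of 709 in cKO_control and 378 of 1067 in cHet_control.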

How the results depend on the processing

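No paired analysis was possible because a group holds a single library. The 100 called folds followed here were those of all keratinocytes, endothelium and the basal, cycling, spinous, suprabasal, cornifying and junctional-type layers. Calls in other clusters, gland and airway-type cells, fibroblasts and mural cells were not among them. Of the 100, 55 kept their call when cells were thinned to 1000 UMIs and 83 at resolution 2. With TMM factors, the common UMI floor or the top 5% of doublet scores left out, 97 to 99 did. With 1 CPM added all 100 did, which was fixed in advance, since a smaller addition cannot shrink a fold. With the mitochondrial cap of 10% 79 of 90 kept their call, and with members used in the clustering 75 of 86. One changed sign: Ocln in cHet spinous cells was -0.11 in log2 with members used in the clustering.

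Of 20 member counts in cycling, spinous, suprabasal, cornifying and junctional-type cells, 11 moved by over 1.5 times when thinned, which also left fewer members with 50 UMIs, 6 at resolution 2, 4 with 1 CPM added and 1 with TMM factors. Of 18, 1 moved with members used in the clustering and 1 with the mitochondrial cap. Among counts and medians of all keratinocytes, basal cells and endothelium, these moved. With 1 CPM added, keratinocytes had 16 members called in cHet (21.8% of all genes), 5 in cKO (12.9%) and 1 between controls (1.55%), and basal cKO 2 (11.4%). With TMM factors basal cKO had 2 (5.18% of all genes). With no UMI minimum the keratinocyte medians were -0.0042 in cKO and -0.0404 between PD libraries. Thinned, the keratinocyte medians were 0.26 in cHet and -0.062 in cKO, and basal cKO had a median of 0.45. Endothelium in cKO then had 3 called (20.5% of all genes) and a median of -0.49. At resolution 2 the cHet keratinocyte median was 0.16, and 17 members had their highest level in other cells. Basal cells then had 6 called in cHet (8.06% of all genes) and 2 in cKO (4.89%). Without the top 5% of doublet scores endothelium in cKO had 2 called (12.6% of all genes). With the mitochondrial cap of 10% the cKO keratinocyte median was 0.046. Endothelium had 2 called in cKO (12.8% of all genes) and 2 between controls (1.74%). Basal cells had 3 called in cKO (7.34%) and 1 between controls (0.613%), with a control median of 0.23. The cause of these moves was not tested. The depth of the 40 to 100 cells in small classes limits calls for members under 50 UMIs.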
